A study of Mus musculus with 16 samples.

Results

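The genes described are 9 transcription factors that establish and keep the identity of hepatocytes, the main cell type of the liver: Hnf4a, Foxa1, Foxa2, Foxa3, Cebpa, Cebpb, Nr5a2, Onecut1 and Prox1. They were chosen by name, and all 9 were found among the 24970 genes of the count table. All 9 also passed the filter on low counts, with 17 to 593 counts per library for Onecut1, the lowest, and 3038 to 22768 for Hnf4a, the highest. Polyadenylated RNA was sequenced from livers of 16 mice in 4 groups of 4. Wild-type C57BL/6 Ntac mice and humanized PXR-CAR-CYP3A4/3A7 mice received either vehicle, 2% DMSO in corn oil, or TCPOBOP, a compound that activates mouse CAR, the constitutive androstane receptor. The name of the humanized strain says that human genes of the receptors PXR and CAR and of the drug-metabolizing enzymes CYP3A4 and CYP3A7 were introduced. TCPOBOP was given at 3 mg/kg in 2 administrations, and the treatment lasted 48 h. The labels used here give no age, sex, time of day or genetic background of the humanized mice. Nothing in the labels says how the mice of a group were related, so the tests measure the spread between these 16 livers.

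Hepatocyte identity rests on a network of factors that bind each other's regulatory regions and those of the genes of the adult liver. FOXA proteins open closed chromatin, and the nuclear receptors HNF4A and NR5A2 (LRH-1), the C/EBP proteins and ONECUT1 (HNF6) activate genes of plasma protein, lipid, bile acid and amino acid metabolism. PROX1 binds HNF4A and NR5A2 as a corepressor. CAR, the receptor of TCPOBOP, acts in the same cells and switches on drug-metabolism genes, and in mice its activation also drives hepatocyte growth and division.

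Promoter sequences of all 9 genes were available from RefSeq (GRCm38.p6) in 14 windows, since some genes have more than 1 start. Below are the 250 bases before the start of Cebpa, the member whose response to TCPOBOP differed between the strains, and of Foxa1, the member with the smallest spread between mice. The first lies on the plus strand at chr7:35119043-35119292 and the second on the minus strand at chr12:57546112-57546361, each printed 5′ to 3′. The gene span of Foxa1 given further on, also from RefSeq, begins farther upstream than the start that set the printed window. The window thus lies inside that span. Capitals mark a TATAAA run in Cebpa and a forkhead run in Foxa1.
Cebpa: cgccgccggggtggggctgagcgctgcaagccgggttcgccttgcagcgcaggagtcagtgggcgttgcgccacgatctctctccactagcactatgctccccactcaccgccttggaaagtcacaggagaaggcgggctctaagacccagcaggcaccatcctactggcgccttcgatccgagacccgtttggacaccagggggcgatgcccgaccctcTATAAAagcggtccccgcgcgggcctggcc
Foxa1: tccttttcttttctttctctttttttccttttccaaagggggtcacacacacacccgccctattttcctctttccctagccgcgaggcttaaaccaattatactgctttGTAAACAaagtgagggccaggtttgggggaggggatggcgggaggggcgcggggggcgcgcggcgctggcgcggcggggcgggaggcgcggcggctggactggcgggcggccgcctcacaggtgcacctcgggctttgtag
The letters TATAAA, searched on both strands, begin 30 bases before the start of Cebpa. They occurred in 5 of the 14 member windows, which belong to 5 of the 9 members, and in 12.4% of 32851 windows of all genes. TGTTTAC, the forkhead letters that FOXA proteins can bind, occurred on the opposite strand of the Foxa1 window, 141 bases before its start, and in 3.17% of all windows. ATTGATTT, searched for ONECUT proteins, was in 1 window of Foxa2 and in 1.14% of all windows. None of the 14 windows held CAAAGTCCA for HNF4 (0.384% of all windows), CAAGGTCA for NR5A2 (1.33%) or TTGCGCAA for C/EBP (0.164%). The looser form TTGCNNAA, which includes the last of these, was in 1 window of Nr5a2 and in 9.56% of all windows. Such matches describe letters only.

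Library totals ran from 11827994 to 37998473 counts, and the 4 deepest libraries were those of wild-type mice given TCPOBOP. Mouse Nr1i3, which encodes CAR, was at 93.4 to 107 CPM (counts scaled to library size with TMM factors) in wild-type livers given vehicle and 1.63 to 2.70 CPM in humanized vehicle livers. Cyp2b10, the classical CAR target, was at 2871 to 3561 CPM in wild-type TCPOBOP and 63.3 to 201 CPM in humanized TCPOBOP livers, against 16.4 to 89.9 and 14.9 to 23.1 CPM under vehicle. A pair of libraries stood apart from their groups. Wild-type vehicle replicate 2 had a mean correlation of 0.921 with the rest of its group, where the others had 0.955 to 0.960, and humanized TCPOBOP replicate 1 had 0.929, where the others had 0.949 to 0.956. Results are given with all 16 libraries and, where a call differs, without this pair, a choice made after the data were seen. A set of 6 hepatocyte markers summed to 52520 to 89216 CPM in wild-type livers given vehicle, 24296 to 37964 CPM with TCPOBOP, and 48816 to 57099 and 39142 to 58168 CPM in the humanized groups. None of these 6 was at 0 in any group. Alb carried most of the sum. With TCPOBOP in wild-type liver 5 of the 6 had log2 changes below 0, and Alb and Ttr had an edgeR adjusted p under 0.05. The median log2 change of the 6 was -0.37, against -0.02 for all genes. Hpd alone was above 0, at 1804 ± 333 CPM under vehicle and 2002 ± 389 CPM with TCPOBOP. Of 6 pancreatic acinar markers, 4 had no count in wild-type TCPOBOP, humanized vehicle and humanized TCPOBOP livers and 5 had none in wild-type vehicle livers. In bulk RNA, fewer cells of a type and less RNA per cell cannot be told apart.

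Per kilobase of transcript, Hnf4a had the highest level of the 9 in wild-type vehicle livers, at 254 ± 32.7 CPM per kb (SD, n = 4). Cebpb followed at 172 ± 65.5 and Cebpa at 159 ± 51.7 CPM per kb. The ranges of these 3 genes overlapped from each to the next. Foxa3, at 35.4 ± 9.26 CPM per kb, lay below all of them without overlap, and it was the highest of the 3 FOXA genes. Nr5a2 (12.6 ± 3.73), Foxa2 (11.8 ± 2.57), Prox1 (10.6 ± 5.16), Onecut1 (6.77 ± 5.67) and Foxa1 (6.73 ± 0.641 CPM per kb) formed a lower set, each overlapping the next. In humanized vehicle livers Cebpb stood first at 256 ± 55.3 CPM per kb, above Hnf4a at 185 ± 29.5 without overlap. Within groups the log2 levels of Foxa1 had an SD of 0.253 and those of Onecut1 an SD of 1.419, where the median gene had 0.362. Onecut1 varied more than 99.7% of the genes tested, and Foxa1 more than 21.7% of them.

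**Figure D1:**
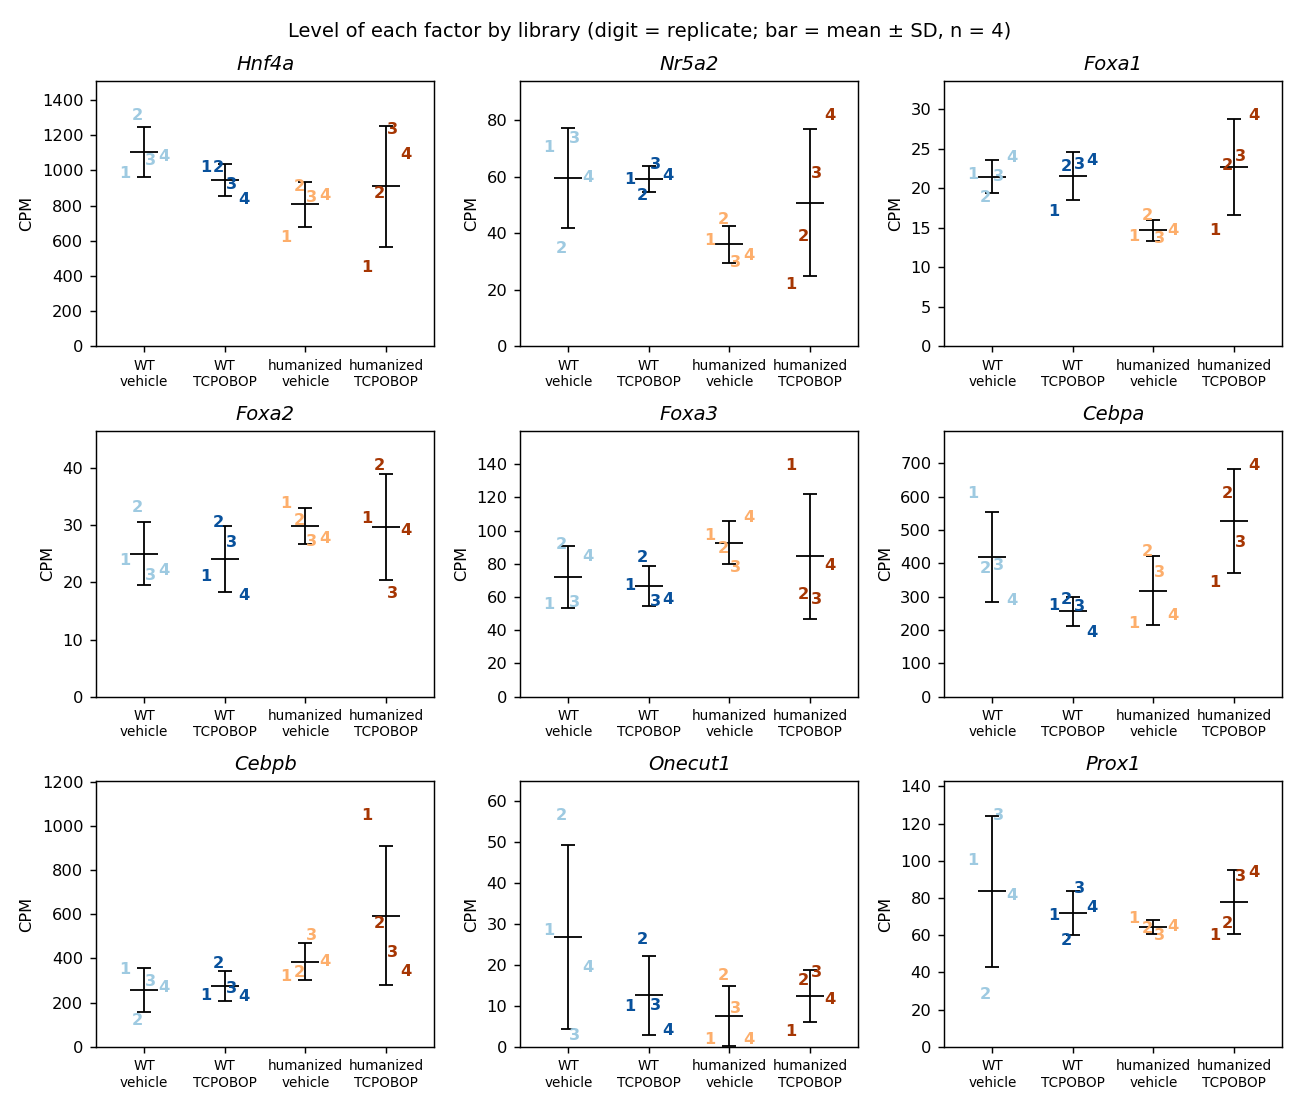
Level of each of the 9 factors in every library, in CPM on linear axes from 0, by group; each digit is the replicate number of a library, and the bars give mean ± SD (n = 4). The Foxa1 libraries of the humanized vehicle group lie below all wild-type vehicle libraries, and humanized TCPOBOP replicate 1 is the lowest of its group for Hnf4a, Nr5a2, Foxa1, Cebpa, Onecut1 and Prox1 and the highest for Cebpb and Foxa3.

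With all libraries, none of the 9 factors passed the threshold for TCPOBOP in either strain or between the strains under vehicle, and Cebpa alone passed for the difference between the TCPOBOP effects. In wild-type liver 0 of 9 passed by edgeR, where 13.1% of the 12913 genes tested did. Cebpa alone had an unadjusted p under 0.05 there, as 25.1% of all genes had, and DESeq2 called 0 factors and 2128 genes. In humanized liver 0 of 9 passed, against 2.52% of all genes, and DESeq2 called 1 factor (Foxa1) and 765 genes. Unadjusted, 2 of 9 were under 0.05, near the 17.9% of all genes. Between the strains under vehicle 0 of 9 passed, against 16.1% of all genes, and DESeq2 called 1 factor (Foxa1) and 2877 genes. Unadjusted, 3 of 9 were under 0.05, near the 34.4% of all genes. For the difference between the effects 1 of 9 passed, against 7.46% of all genes and 3.48% with a higher effect in humanized liver. No factor had TCPOBOP and vehicle livers that did not overlap, where 20.9% of all genes had them in wild-type and 9.95% in humanized mice. The median log2 change of the 9 was -0.12 in wild-type liver, where that of all genes was -0.02, and 0.50 in humanized liver, where it was 0.02. The median log2 difference between the strains under vehicle was -0.40, against 0.00 over all genes; these comparisons share the vehicle groups. Without the 2 libraries that stood apart, the numbers past the threshold were 2, 3, 4 and 4 for wild-type TCPOBOP, humanized TCPOBOP, the strain difference and the difference of effects. Of all genes, 23.4%, 16.4%, 34.6% and 24.1% then passed in the same order.

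**Figure D2:**
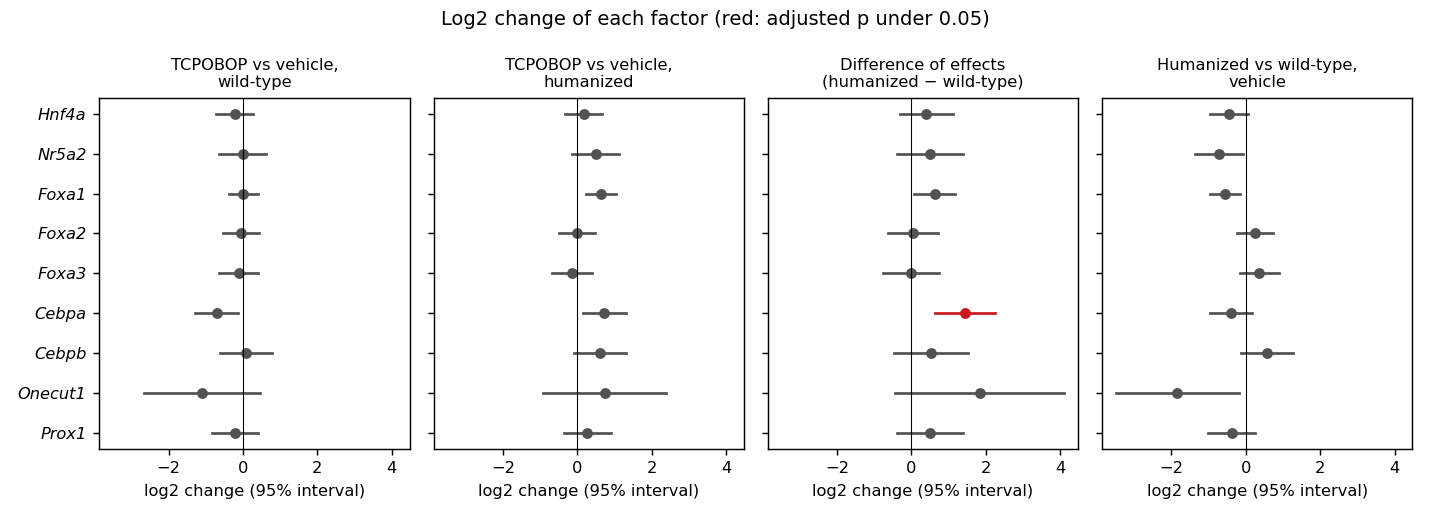
Log2 change of each factor with its 95% interval from the edgeR fit of all 16 libraries in 4 comparisons, the third being the effect of TCPOBOP in humanized minus that in wild-type liver; red marks an adjusted p under 0.05. Cebpa in the third panel, at 1.44, is the single red point, and the intervals of Onecut1 are the widest.

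Cebpa (chr7:35119293-35121928, plus strand, mm10) encodes C/EBP alpha, which drives genes of the mature hepatocyte and restrains cell division. Its levels were 609.5, 384, 393 and 288 CPM in wild-type vehicle replicates 1 to 4 and 272, 291, 269.9 and 192 CPM in wild-type TCPOBOP replicates 1 to 4. They were 220.2, 436, 373 and 243 CPM in humanized vehicle and 343, 609, 463.5 and 693 CPM in humanized TCPOBOP replicates. The treated livers were thus at the low end of the vehicle range or below it in wild-type mice and in its upper part or above it in humanized mice, with overlap in both strains. The TCPOBOP effect was -0.71 ± 0.27 on the log2 scale in wild-type liver (SE; edgeR adjusted p = 0.102) and 0.73 ± 0.27 in humanized liver (edgeR adjusted p = 0.166). The difference between these effects was 1.44 ± 0.39, a 2.71-fold ratio with a 95% interval of 1.54 to 4.75 (edgeR adjusted p = 0.0291).

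The Cebpa call for the difference rested on several single livers. The adjusted p rose above 0.05 without any 1 of 6 libraries, which were wild-type vehicle 1, wild-type TCPOBOP 3 and 4, humanized vehicle 1 and 4, and humanized TCPOBOP 4, and ran from 0.0557 to 0.0726 there. Without the 2 libraries that stood apart the difference was 1.66 (edgeR adjusted p = 0.00458), and Cebpa then also fell in wild-type liver (-0.76, edgeR adjusted p = 0.046) and rose in humanized liver (0.90, edgeR adjusted p = 0.0297). Under vehicle, Cebpa differed between the strains by -0.40 (95% interval -0.97 to 0.17, edgeR adjusted p = 0.308). The clock output gene Dbp, looked up after the values were seen, was at 3.92 to 6.29 CPM in humanized vehicle livers and at 20.1 to 106 CPM in humanized TCPOBOP livers. In wild-type livers it was at 11.6 to 81.3 CPM under vehicle and 34.6 to 63.9 CPM with TCPOBOP. Whether a part of the Cebpa difference goes with such rhythmic genes was not tested.

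The genes whose centred log2 levels lay closest to those of Cebpa over the 16 libraries were Pdk2, Zfp385a and Adipor2. Their root mean square differences from Cebpa were 0.297, 0.298 and 0.304, where the median gene had 0.696. Pdk2 encodes a kinase that inhibits pyruvate dehydrogenase, and Adipor2 an adiponectin receptor.

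Cebpb (chr2:167688915-167690432, plus strand) encodes C/EBP beta, which is induced in liver during the acute phase response and regeneration. It was at 349.8, 119.6, 296 and 266.5 CPM in wild-type livers given vehicle and 231, 376, 265 and 228 CPM in wild-type TCPOBOP replicates 1 to 4. Its levels were 318.5, 335, 503 and 384 CPM in humanized vehicle and 1045, 559, 427 and 340.4 CPM in humanized TCPOBOP replicates. The highest value was in humanized TCPOBOP replicate 1 and the lowest in wild-type vehicle replicate 2, and every pair of groups compared overlapped. The log2 change was 0.09 in wild-type liver (95% interval -0.61 to 0.79, edgeR adjusted p = 0.909) and 0.62 in humanized liver (-0.08 to 1.32, edgeR adjusted p = 0.35). Between the strains under vehicle it was 0.58 (-0.12 to 1.28, edgeR adjusted p = 0.227). The acute phase gene Saa1, looked up after the values were seen, was at 43130 CPM in humanized TCPOBOP replicate 1 and at 7993 to 17508 CPM in the other 3 libraries of that group. Macrophages also express Cebpb, and 6 Kupffer cell and macrophage markers summed to 430 to 943 CPM in wild-type livers given vehicle and 182 to 331 CPM in humanized vehicle livers. The part of either in the Cebpb levels was not tested. Reads of Tmem189, which overlaps Cebpb on the opposite strand and had 72 to 259 counts per library, cannot be separated if the counting ignored strand.

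Hnf4a (chr2:163506811-163572907, plus strand) encodes the nuclear receptor that binds most hepatocyte genes, and its loss leads hepatocytes to dedifferentiate and divide in mice. It was at 982, 1311, 1055 and 1077 CPM in wild-type livers given vehicle and 1015, 1018, 918 and 833 CPM in wild-type TCPOBOP replicates 1 to 4. In humanized mice it was at 619, 907, 844 and 860.2 CPM under vehicle and 449, 867, 1234 and 1089 CPM with TCPOBOP. All humanized vehicle livers lay below all wild-type vehicle livers, whereas each treated group overlapped its vehicle group. The log2 change with TCPOBOP was -0.23 in wild-type liver (95% interval -0.73 to 0.28, edgeR adjusted p = 0.635) and 0.17 in humanized liver (-0.33 to 0.68, edgeR adjusted p = 0.769). The wild-type interval thus reaches from a level of 0.602 to one of 1.21 times vehicle. Between the strains under vehicle the difference was -0.45 (-0.96 to 0.05, edgeR adjusted p = 0.188). Hnf4a has 3 transcript entries in the table, the other two with 0.979 and 0.976 times the highest mean count, so transcripts from its adult and embryonic promoters cannot be told apart.

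Nr5a2 (chr1:136842562-136960448, minus strand) encodes LRH-1, a nuclear receptor of bile acid and cholesterol genes. Its levels were 70.3, 34.5, 73.5 and 59.8 CPM in wild-type livers given vehicle and 59.1, 53.3, 64.4 and 60.5 CPM in wild-type TCPOBOP replicates 1 to 4. In humanized vehicle livers they were 37.4, 44.9, 29.7 and 32.3 CPM, and in humanized TCPOBOP livers 22.0, 38.8, 61.1 and 81.7 CPM. Wild-type TCPOBOP livers were alike, humanized TCPOBOP livers spread widely, and the vehicle groups overlapped through wild-type replicate 2. The log2 change was -0.00 in wild-type liver (95% interval -0.63 to 0.63, edgeR adjusted p = 0.996), 0.50 in humanized liver (edgeR adjusted p = 0.421) and -0.72 between the strains under vehicle (edgeR adjusted p = 0.105). Without the 2 libraries that stood apart it rose in humanized liver (0.76, edgeR adjusted p = 0.018) and was lower in humanized than in wild-type vehicle livers (-0.91, edgeR adjusted p = 0.00375). The difference between the TCPOBOP effects was then 0.96 (edgeR adjusted p = 0.0191), against 0.50 (edgeR adjusted p = 0.561) with all libraries.

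The 3 FOXA genes encode related forkhead proteins that open chromatin at liver genes from early development on. Foxa1 (chr12:57540628-57548029, minus strand) was at 21.7, 18.8, 21.5 and 23.8 CPM in wild-type livers given vehicle and 17.1, 22.7, 23.0 and 23.5 CPM in wild-type TCPOBOP replicates 1 to 4. It was at 13.9, 16.5, 13.6 and 14.6 CPM in humanized vehicle and 14.6, 22.9, 24.0 and 29.2 CPM in humanized TCPOBOP livers. All humanized vehicle livers were below all wild-type vehicle livers, and 3 of the 4 humanized TCPOBOP livers lay within or above the wild-type range. Foxa1 and Hnf4a were the 2 of 9 members whose vehicle groups did not overlap between strains, where 26.4% of all genes did not and 12.0% were lower in every humanized liver.

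For Foxa1 the log2 difference between the strains under vehicle was -0.55 ± 0.19 (edgeR adjusted p = 0.0555), close to the threshold on the far side. It was past it with RLE scaling (edgeR adjusted p = 0.0475), by DESeq2 (adjusted p = 0.0245) and in a fit of the 2 groups alone (edgeR adjusted p = 0.0236). It was also past it with the replicate block (edgeR adjusted p = 0.0473) and with thinned counts (edgeR adjusted p = 0.0468). It was short of it with no filter (edgeR adjusted p = 0.0722) and with summed accessions (edgeR adjusted p = 0.0599). The 2 groups alone with the replicate block also left it short (edgeR adjusted p = 0.073). With single libraries left out the adjusted p ran from 0.0121 to 0.132 and was under 0.05 in 3 of 16 fits. The change with TCPOBOP was 0.63 ± 0.19 in humanized liver (edgeR adjusted p = 0.0884; DESeq2 adjusted p = 0.0226) and 0.01 ± 0.19 in wild-type liver (95% interval -0.38 to 0.40, edgeR adjusted p = 0.988). The difference between these effects was 0.62 (edgeR adjusted p = 0.179). Without humanized TCPOBOP replicate 1 it was 0.81 (edgeR adjusted p = 0.0199), and the rise in humanized liver was 0.81 (edgeR adjusted p = 0.00877). Without both libraries that stood apart, Foxa1 differed between the strains under vehicle by -0.61 (edgeR adjusted p = 0.00604) and rose with TCPOBOP in humanized liver by 0.80 (edgeR adjusted p = 0.00322). The difference between the effects was then 0.86 (edgeR adjusted p = 0.00612).

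Foxa2 (chr2:148042877-148046969, minus strand), which also regulates fasting metabolism and bile acid transport, was at 21.2 to 33.1 CPM in wild-type livers given vehicle and 17.8 to 30.6 CPM in wild-type TCPOBOP livers. It was at 27.2 to 33.9 CPM in humanized vehicle and 18.0 to 40.5 CPM in humanized TCPOBOP livers, so all groups overlapped. Its log2 change was -0.05 in wild-type liver (95% interval -0.53 to 0.42) and -0.01 in humanized liver (-0.49 to 0.47). Foxa3 (chr7:19013283-19023539, minus strand), the FOXA gene with the highest level per kilobase, was at 55.5 to 91.9 and 57.1 to 83.7 CPM in wild-type livers given vehicle and TCPOBOP livers. In humanized livers it was at 77.5 to 108 CPM under vehicle and 58.4 to 139 CPM with TCPOBOP, the highest value again in replicate 1. Its log2 changes were -0.12 in wild-type liver (-0.65 to 0.41) and -0.14 in humanized liver (-0.67 to 0.39). Under vehicle it was 0.36 higher on the log2 scale in humanized livers (edgeR adjusted p = 0.313), and 0.50 higher without the 2 libraries that stood apart (edgeR adjusted p = 0.043).

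Onecut1 (chr9:74861921-74889648, plus strand) encodes HNF6, a factor of liver and bile duct development that is regulated by growth hormone. It was at 28.5, 56.4, 2.82 and 19.5 CPM in wild-type livers given vehicle and 9.85, 26.2, 10.1 and 3.95 CPM in wild-type TCPOBOP replicates 1 to 4. In humanized mice it was at 1.87, 17.3, 9.25 and 1.77 CPM under vehicle and 3.84, 16.2, 18.2 and 11.5 CPM with TCPOBOP. In each group the highest liver was more than 4 times the lowest, and the groups compared overlapped. The log2 changes were -1.09 in wild-type liver (95% interval -2.65 to 0.47, edgeR adjusted p = 0.403) and 0.74 in humanized liver (-0.91 to 2.39, edgeR adjusted p = 0.677). Between the strains under vehicle the difference was -1.84 (-3.48 to -0.19, edgeR adjusted p = 0.108), and it was -2.71 (edgeR adjusted p = 0.0475) without humanized vehicle replicate 2. Its lowest library held 17 counts. A set of 6 markers of cholangiocytes, which also express Onecut1, summed to 34.0 to 38.5 CPM in wild-type livers given vehicle and 37.1 to 60.0 CPM in humanized vehicle livers. The part of cholangiocytes in the Onecut1 level was not tested.

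Prox1 (chr1:190118035-190170827, minus strand) encodes a homeodomain factor that hepatocytes share with lymphatic endothelium. It was at 100.2, 28.2, 124 and 81.6 CPM in wild-type livers given vehicle and 70.6, 56.9, 85.1 and 74.9 CPM in wild-type TCPOBOP replicates 1 to 4. In humanized mice it was at 68.8, 63.8, 59.7 and 64.9 CPM under vehicle and 59.9, 66.4, 91.3 and 93.5 CPM with TCPOBOP. Wild-type vehicle replicate 2 was far below the other 3 livers of its group, which lay above all humanized vehicle livers. With all libraries the log2 change was -0.22 in wild-type liver (95% interval -0.84 to 0.41, edgeR adjusted p = 0.732) and -0.38 between the strains (edgeR adjusted p = 0.379). Without the 2 libraries that stood apart, Prox1 fell with TCPOBOP in wild-type liver (-0.51, edgeR adjusted p = 0.0321) and was lower in humanized vehicle livers (-0.66, edgeR adjusted p = 0.00757). Its TCPOBOP effects then differed by 0.91 (edgeR adjusted p = 0.0107), against 0.49 (edgeR adjusted p = 0.566) with all libraries. A set of 6 markers of sinusoidal and lymphatic endothelium summed to 234 to 447 CPM in wild-type livers given vehicle and 122 to 161 CPM in humanized vehicle livers. The part of these cells in the Prox1 level was not tested. The opposite-strand gene Prox1os overlaps Prox1 and had 37 to 78 counts per library, against 296 to 1820 for Prox1.

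**Figure D3:**
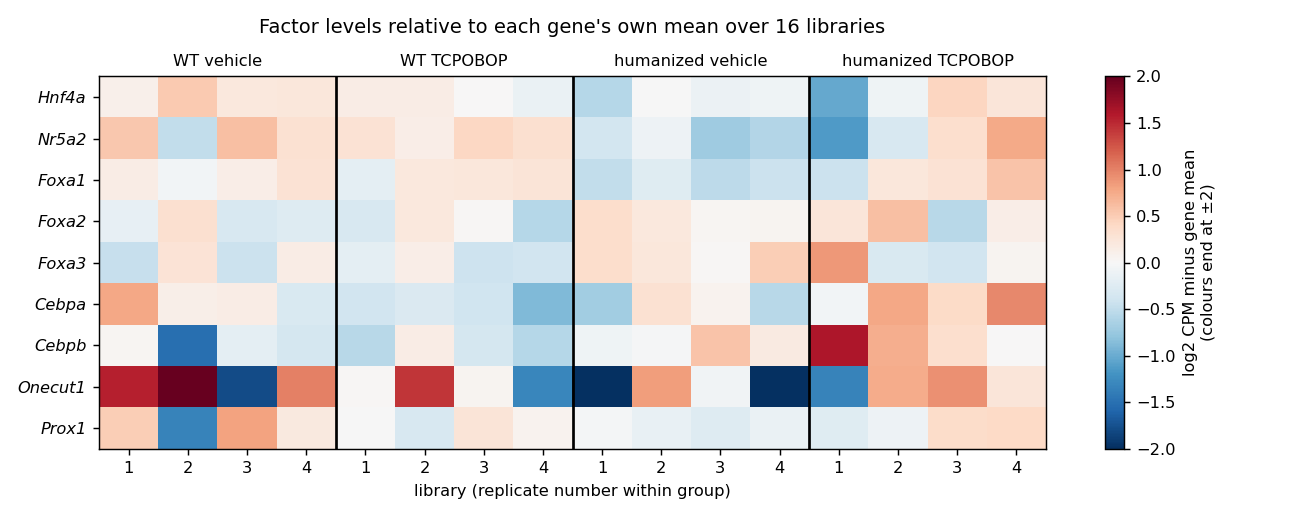
Log2 CPM of each factor minus its mean over the 16 libraries, with groups separated by lines and colours that end at ±2. Humanized TCPOBOP replicate 1 is clearly blue for Hnf4a, Nr5a2 and Onecut1, clearly red for Cebpb and Foxa3, and pale for Cebpa, Foxa2 and Prox1. Wild-type vehicle replicate 2 is blue for Cebpb, Prox1 and Nr5a2 and red for Hnf4a and Onecut1.

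Single livers were extreme for several factors at once, in opposite directions. In a group of 4, some library must be the lowest and some the highest for each factor, so such counts arise in any data. They were not compared with counts over all genes. In humanized TCPOBOP mice, replicate 1 had the lowest level of the group for 6 of the 9 factors and the highest for 2. In wild-type vehicle mice, replicate 2 had the lowest level for 4 factors (Foxa1, Cebpb, Nr5a2 and Prox1) and the highest for 4 (Hnf4a, Foxa2, Foxa3 and Onecut1). Libraries that did not stand apart were extreme for many factors too. Wild-type TCPOBOP replicate 2 was the highest of its group for 6 factors and the lowest for 2, and wild-type TCPOBOP replicate 4 was the lowest for 5. Humanized vehicle replicate 2 was the highest for 5 and replicate 3 the lowest for 5.

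Other liver-enriched transcription factors were called about as often as all genes in wild-type liver, with 13.8% against 13.1%. Of 29 tested of a list of 30, Tbx3, a factor of pericentral hepatocytes, rose in wild-type liver and Stat5b, Ppara and Cux2 fell. In humanized liver 0 passed by edgeR, where 2.52% of all genes did. Of the 29, 6 had an unadjusted p under 0.05 there, where 17.9% of all genes had. By DESeq2, which called 765 genes there, 3 passed. The median log2 changes were -0.07 in wild-type and 0.12 in humanized liver, against -0.02 and 0.02 for all genes. Stat5b, which carries growth hormone signals, went from 109 ± 16.3 to 61.0 ± 3.61 CPM (-0.84 ± 0.17, edgeR adjusted p = 0.00189). Ppara, the receptor that drives fatty acid oxidation, fell by 1.21 (edgeR adjusted p = 0.0111), and its effect differed between the strains by 2.32 (edgeR adjusted p = 0.00262). Tbx3 went from 15.9 ± 7.72 to 36.6 ± 7.87 CPM (1.22, edgeR adjusted p = 0.0149). Cux2 had 21.7 CPM in 1 wild-type vehicle library and a group median of 0.64 CPM, and its vehicle and TCPOBOP libraries overlapped. Between the strains under vehicle, Nr0b2, the bile acid-induced repressor SHP, was 1.00 higher on the log2 scale in humanized livers (edgeR adjusted p = 0.0296) and Zbtb20 0.57 higher (edgeR adjusted p = 0.0489). Rxra, the shared partner of CAR and PXR, was 0.61 lower, at 427 ± 58.0 against 652 ± 105 CPM (edgeR adjusted p = 0.0282). Ppara was also lower under vehicle, with a difference of -0.97 (edgeR adjusted p = 0.0366). These 4 of 29 are 13.8%, against 16.1% of all genes, and all 4 lost their call without humanized vehicle replicate 1 or without replicate 3. Without the 2 libraries that stood apart 5 of the 29 rose and 2 fell with TCPOBOP in humanized liver, where 16.4% of all genes then passed.

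Genes of hepatocyte function make plasma proteins, bile acids, lipoproteins and glucose, and many are targets of these factors. Of 39 tested of a list of 40, 11 fell and Mttp rose in wild-type liver, where 4.99% of all genes fell and 8.10% rose. The median log2 change of the list was -0.50, against -0.02 for all genes. In humanized liver Mttp rose and 0 fell by edgeR, or 2.56% against 2.52% of all genes. There 8 of 39 had an unadjusted p under 0.05, where 17.9% of all genes had. DESeq2, which called 765 genes there, gave 2 that rose and 1 that fell. Without the 2 libraries that stood apart 4 of the 39 rose and 2 fell, where 16.4% of all genes then passed. The median of the 39 with all libraries was 0.00, and Mttp lost its call without any 1 of 10 libraries. The number that fell in wild-type liver was 7 without wild-type TCPOBOP replicate 3 and 13 without the 2 libraries that stood apart. Alb, the albumin gene, fell from 49738 ± 14153 to 16881 ± 4069 CPM (-1.56 ± 0.25, edgeR adjusted p = 0.000271). Trf, which encodes transferrin, fell from 26052 ± 2189 to 11108 ± 2706 CPM (-1.23, edgeR adjusted p = 0.00128). Pck1, the gluconeogenic enzyme PEPCK, fell by 1.96 (edgeR adjusted p = 0.000165). F11, a coagulation factor gene, fell by 1.19 (edgeR adjusted p = 0.00335). The effect of TCPOBOP on Alb differed between the strains by 1.56 (edgeR adjusted p = 0.00935) and that on F11 by 1.51 (edgeR adjusted p = 0.0134). Those on Trf and Cyp2e1 differed by 1.18 and 1.29 (edgeR adjusted p = 0.0313 and 0.0366). Between the strains under vehicle 5 of 39 passed, or 12.8% against 16.1% of all genes. Abcg5 and Hpd were higher in humanized livers, and Mttp, Slc10a1 and Alb lower, Alb by a difference of -0.78 (edgeR adjusted p = 0.0386). The number of the 39 that passed was 1 without humanized vehicle replicate 1 and 2 without replicate 3 or replicate 4. Without the 2 libraries that stood apart 8 of the 39 were higher and 5 lower, where 34.6% of all genes then passed. In humanized vehicle livers the bile acid uptake gene Slc10a1 was at 222 ± 35.5 CPM, against 598 ± 41.4 CPM in wild-type vehicle livers (-1.43, edgeR adjusted p = 0.00204). The list was chosen with earlier results of these data known.

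**Figure D4:**
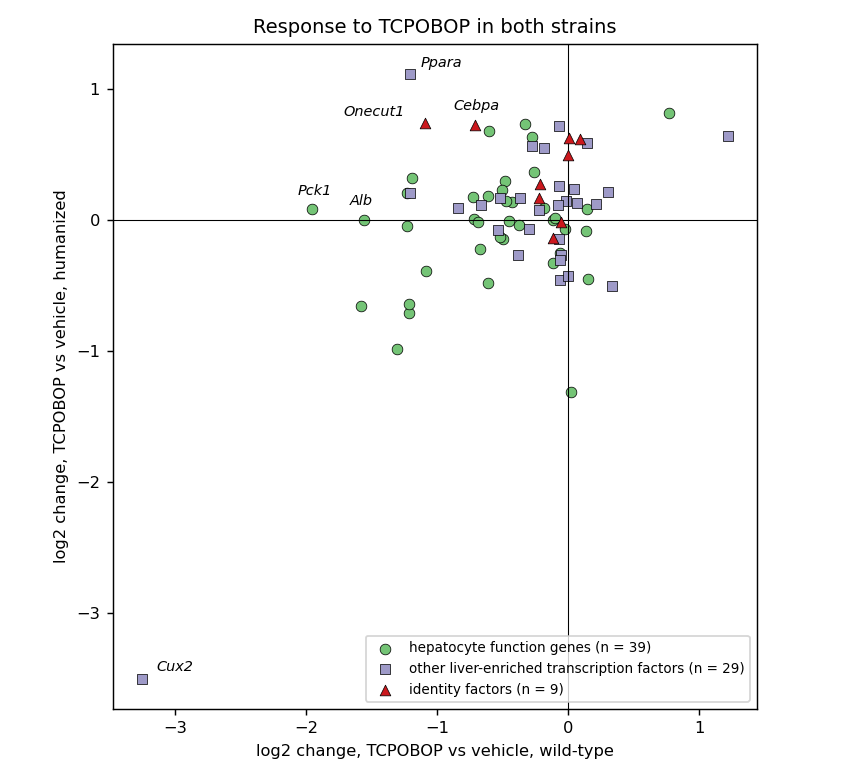
Log2 change with TCPOBOP in wild-type (x axis) and humanized liver (y axis) for the 9 identity factors (triangles), 39 hepatocyte function genes (circles) and 29 other liver-enriched transcription factors (squares). Many circles lie left of 0, Alb and Pck1 among them, and Cebpa and Onecut1 lie left of 0 and above it; Cux2 lies apart at the lower left.

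Of 19 genes of fetal, progenitor and biliary-lineage cells 11 were tested. In wild-type liver 1 of 11 passed, or 9.09% against 13.1% of all genes. In humanized liver 0 passed by edgeR, where 2.52% of all genes did. Unadjusted, 3 of the 11 were under 0.05 there, where 17.9% of all genes were. By DESeq2, which called 765 genes there, 1 fell. Without the libraries that stood apart 2 fell by edgeR, where 16.4% of all genes then passed. Prom1, a surface marker of progenitor and biliary cells, rose in wild-type liver from 2.92 ± 3.96 to 31.2 ± 3.72 CPM, with every treated liver above every vehicle liver (3.39 ± 0.58, edgeR adjusted p = 0.000583). In humanized liver it was at 2.54 ± 1.37 and 0.985 ± 0.592 CPM, and the effects differed by -4.82 (edgeR adjusted p = 0.00345). Afp, the fetal serum protein gene, was at 2.01 ± 0.666 CPM in wild-type livers given vehicle and 1.90 ± 0.965 CPM in wild-type TCPOBOP livers (-0.07, edgeR adjusted p = 0.948). Sox9, a biliary and progenitor factor, was higher in humanized than in wild-type vehicle livers, at 13.2 ± 5.26 against 5.10 ± 0.632 CPM (1.37, edgeR adjusted p = 0.0198). The growth regulator gene Gpc3 was lower there, with 0 to 2 counts in each humanized vehicle library (edgeR adjusted p = 0.0158). These 2 of 11 are 18.2%, against 16.1% of all genes. The Sox9 call was lost without humanized vehicle replicate 3 or replicate 4, and the Gpc3 call without replicate 1 or replicate 4. The median log2 change with TCPOBOP of the 11 genes was -0.35 in wild-type and -0.45 in humanized liver.

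Of 14 coregulators, Ppargc1a and Ppargc1b, coactivators of HNF4A and other nuclear receptors, fell in wild-type liver by 1.12 and 1.50 on the log2 scale (edgeR adjusted p = 0.0227 and 0.0255). These 2 of 14 are 14.3%, against 13.1% of all genes, and the median of the 14 was -0.08. In humanized liver, where 2.52% of all genes passed, 0 passed by edgeR and 0 by DESeq2. Unadjusted, 3 of the 14 were under 0.05 there, where 17.9% of all genes were. Without the 2 libraries that stood apart 3 of the 14 rose and 0 fell in humanized liver, where 16.4% of all genes then passed. The effects of TCPOBOP on Ppargc1b differed by 2.59 (edgeR adjusted p = 0.0138). The nuclear receptor coactivators Ncoa1 and Ncoa2 were lower in humanized than in wild-type vehicle livers, by differences of -0.72 and -0.83 (edgeR adjusted p = 0.0403 and 0.0231). They are 14.3% of the list, against 16.1% of all genes, and neither passed without humanized vehicle replicate 1 or without replicate 3. None of the 14 fell in wild-type liver when wild-type TCPOBOP replicate 3 or replicate 4 was left out.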

How the data were processed

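The authors deposited whole-number counts for 40458 RefSeq transcript accessions in 16 libraries. Trizol extraction, poly(A) selection and a NEBNext kit are named per the labels' protocols, and STAR, DESeq2 and mm10 per the submitters' processing notes. No source used here names the counting program, strand setting or annotation release. Of counts of 20 or more, 74.9% were even, close to the 75% that halved counts rounded to the even side give, so single counts are approximate. Accessions were joined to symbols through RefSeq (40219) and GENCODE (125), and the other 114 held 0.227 to 0.582% of a library. For a gene with several accessions, the one with the highest mean over the libraries was used.

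One edgeR 4.0.16 fit (R 4.3.3) held all libraries, with filterByExpr, TMM, a mean per group and quasi-likelihood F tests, two-sided. Benjamini-Hochberg adjustment ran over 12913 genes, with a threshold of 0.05. Intervals are 95% intervals of that fit. The steps were run on simulated counts with a fixed spread and large changes, a setting without libraries that stand apart. Named genes were the 9 members, up to 4 called genes of each list with the smallest p per comparison, and the 3 genes closest to each called member; a few others are named beside them for contrast. Members and lists were chosen with earlier results of these data known. Same-numbered replicates were not paired by the labels. Alternatives were RLE scaling, DESeq2 1.42.0, no filter, the replicate block, summed accessions, the compared groups alone, thinned counts and single libraries left out.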

Additional observations from a re-analysis of the deposited data

Results flagged for a closer look

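In 36 combinations of factor and group, a library far from the other 3 was found once. Chance gives about 1 in every 20 combinations, so 1 in 36 is not more than chance gives. It was Foxa1 in wild-type TCPOBOP replicate 1, at 17.1 CPM.

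The effect of TCPOBOP differed between humanized and wild-type liver by the test of that difference for Cebpa (1.44 on the log2 scale), Ppara (2.32), Stat5b (0.93), Pck1 (2.04), Scarb1 (1.44), Alb (1.56), F11 (1.51), Prom1 (-4.82) and Ppargc1b (2.59). For Prom1 the effect was lower in humanized liver, and for the others it was higher. These are Cebpa and, from each gene list, the up to 4 called genes with the smallest p. Trf and Cyp2e1 were also called, so 6 of the 39 function genes passed, or 15.4% against 7.46% of all genes. Of the other liver-enriched factors 6.9% passed, of the coregulators 7.14% and of the fetal, progenitor and biliary-lineage genes 9.09%. With single libraries left out, Cebpa kept its call in 10 of 16 fits. The called genes with a higher effect in humanized liver then numbered 4 to 8 function genes and 1 to 6 other liver-enriched factors. The edgeR adjusted p of the first 9 differences ran from 0.00262 for Ppara to 0.0291 for Cebpa.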

How the results depend on the processing

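Cebpa kept its direction in the 4 comparisons under each alternative tried. Median changes of all genes lay at most 0.062 from 0 under another scaling. The number of factors past the threshold between the strains under vehicle was 1 with RLE scaling, DESeq2, thinned counts and the replicate block, and 2 with the 2 groups alone; in humanized liver it was 1 by DESeq2. Genes called in humanized liver numbered 765 by DESeq2, 209 with the replicate block and 182 with the 2 groups alone, and those with differing effects 1481 by DESeq2. Without both libraries that stood apart, 3046, 2137, 3140 and 4505 genes and 2, 3, 4 and 4 factors were called for wild-type TCPOBOP, humanized TCPOBOP, the difference of effects and the strain. With single libraries left out these were 1068 to 2190, 74 to 960, 575 to 1782 and 621 to 3425 genes, and 0 to 0, 0 to 2, 0 to 2 and 0 to 3 factors. The cause of these shifts was not tested.

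Signs turned for values near 0. In wild-type liver Foxa1 was at -0.0163 with RLE scaling, -0.016 by DESeq2, -0.0031 with the replicate block, -0.0058 with the 2 groups alone, -0.0813 with thinned counts and -0.0597 without both libraries. Nr5a2 there was at 0.0161 with no filter, 0.0113 with the block and 0.0017 with summed accessions. Foxa2, Foxa3 and Cebpb there were at 0.10, 0.0113 and -0.15 without both libraries. In humanized liver Foxa2 was at 0.0198 with RLE scaling, 0.0194 by DESeq2 and 0.0149 with no filter. For the difference of effects, Foxa3 was at 0.0348 with RLE scaling, 0.0349 by DESeq2 and 5e-04 with thinned counts, and Foxa2 at -5e-04 with the block and -0.13 without both libraries. Leaving out single libraries gave, in wild-type liver, -0.0506 to 0.11 for Foxa1, -0.19 to 0.11 for Foxa2, -0.25 to 0.0195 for Foxa3, -0.15 to 0.26 for Cebpb, -0.19 to 0.11 for Nr5a2 and -0.50 to 0.0419 for Prox1. In humanized liver it gave -0.0098 to 0.42 for Hnf4a, -0.18 to 0.17 for Foxa2 and -0.47 to 0.0046 for Foxa3, and for the difference of effects -0.12 to 0.22 for Foxa2 and -0.34 to 0.13 for Foxa3. The labels do not say that a replicate number marks a shared day or litter. Same-numbered libraries had correlations of their deviations of -0.2438 to 0.5814, with 6 of 24 above 0.1. Of these, 3 were among the 4 pairs of wild-type vehicle and TCPOBOP livers, whose lowest was 0.0998, just short of the limit for pairing, and 4 of these 8 libraries correlated best with their own number. With the 2 wild-type groups alone and the replicate block, a fit chosen after the data were seen, 1 factor passed, Cebpa (-0.69, edgeR adjusted p = 0.0236), and Foxa1 and Nr5a2 were at -0.0092 and 0.0334. In the like fit of the humanized groups 68 genes passed.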
